A study of Mus musculus with 8 samples.

Results

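Dppa2 and Dppa4 are neighbouring genes on mouse chromosome 16 that act together as activators of Dux. This account describes the N6-methyladenosine (m6A) peaks over both mRNAs in mouse embryonic stem cells (ESCs) given DMSO or doxycycline (Dox). A peak was assigned to a gene when its exon blocks shared at least 1 base, on the same strand, with an exon of that gene. This rule found 7 DMSO peaks and 5 Dox peaks, 12 of 31896 peaks in all (18895 DMSO and 13001 Dox peaks).

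The cells were E14 ESCs which, by the study's methods, carry a transgene of Dux that Dox switches on and a tdTomato reporter driven by the promoter of Mervl, a retrovirus-derived element active at the 2-cell (2C) stage. Control cells carry both transgenes too. They were given DMSO for 24 h, and the others were given Dox for 24 h. Methylated RNA immunoprecipitation sequencing (MeRIP-seq), in which fragmented poly(A) RNA is pulled down with an antibody against m6A, gave 8 libraries in 4 groups of 2 replicates, namely the pulled-down RNA (IP) and the unselected RNA (input) of each treatment. The deposited peaks were 1 list per treatment, so that no value below has a replicate error and no test between treatments could be made.

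DPPA2 and DPPA4 are small nuclear proteins with a SAP domain, which binds DNA. They bind each other and are found in early embryos, ESCs and primordial germ cells. In ESCs they sit at promoters that carry both activating and repressive histone marks and keep them open to activation, and they are needed for the expression of Dux and, through it, of Zscan4 and other 2C genes. m6A is written onto mRNA by the METTL3-METTL14 complex, mostly within the sequence DRACH and often near stop codons, and reader proteins such as YTHDF2 speed the decay of mRNAs that carry it.

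The cell type labels were checked against marker genes. Of 7 ESC markers, 7 had a peak under DMSO and 7 under Dox. Of 6 markers of 2C-like cells, 2 had a peak under DMSO and 6 under Dox, while 0 of 7 markers of endoderm, mesoderm, neural cells and fibroblasts had a peak in either list. Among the 2C markers, Duxf3 is the annotated copy of Dux, which the transgene also encodes. Another, Zfp352, had only 1 Dox peak, of 25 nt and with a score of 10.2, near the lowest of the list. How many cells of the Dox libraries were 2C-like was not measured in the peak lists. A peak call also rests on the amount of RNA and on the depth of the libraries, which were not analysed here, so that less methylation, less RNA and fewer reads cannot be told apart.

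Both genes carried peaks in both lists, Dppa2 with 2 peaks under DMSO and 2 under Dox, and Dppa4 with 5 and 3. Of 22028 protein-coding genes, 27.5% carried at least 1 peak under DMSO, 22.1% under Dox and 21.5% under both. At least 5 DMSO peaks, as in Dppa4, were found in 5.70% of genes. Dppa2 was thus among the 37.1% of genes with peaks in both lists that had as many Dox as DMSO peaks, and Dppa4 among the 49.4% that had fewer. Among the 349 genes with 5 DMSO peaks and a Dox peak, 52.7% had 3 or fewer Dox peaks, so that the lower number in Dppa4 was the more frequent outcome.

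The bases within peaks also differed between the genes. In Dppa2, peaks covered 525 nt under DMSO and 425 nt under Dox, which is 21.5% and 17.4% of its exonic sequence of 2447 nt. In Dppa4 they covered 575 nt and 275 nt, or 34.6% and 16.5% of 1662 nt. Per length of exon, Dppa4 was thus the more widely covered gene in DMSO and was close to Dppa2 in Dox. The Dox peaks of Dppa2 held 81.0% as many bases as its DMSO peaks, and those of Dppa4 held 47.8%. Without the peaks that have a near-identical copy elsewhere in the genome, described further on, these shares were 88.9% (400 of 450 nt) and 78.6% (275 of 350 nt). This setting was chosen after the data were seen. The Dppa4 peaks it left out were those with no overlapping Dox peak, so that its share had to rise. With a score of at least the DMSO median asked of both lists, the shares were 94.4% and 25%. The gap between the genes thus narrowed or widened with the setting. Over the 4730 genes with peaks in both lists, with all peaks kept, the median share was 70.4% (quartiles 50% and 87.5%), and Dppa2 stood at the 65.3rd percentile and Dppa4 at the 23.8th. Fewer bases in Dox peaks were found in 85.7% of these genes, and both members belonged to them.

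**Figure D1:**
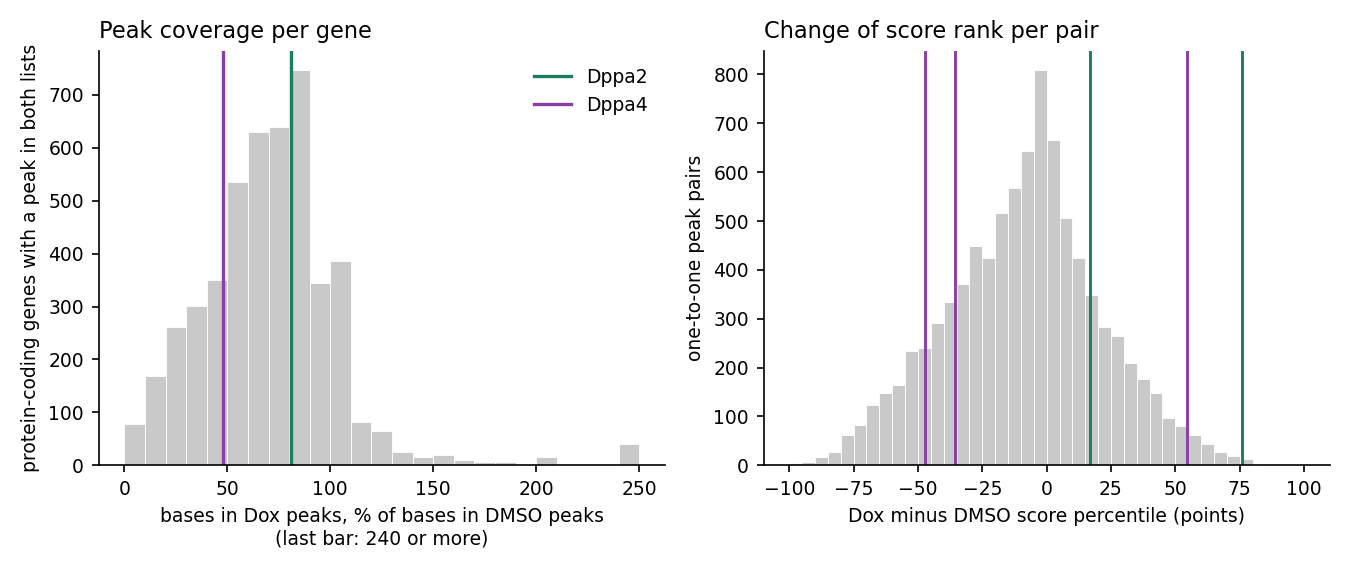
Left, the bases in Dox peaks as a percent of the bases in DMSO peaks for 4730 protein-coding genes with a peak in both lists (grey bars), with Dppa2 (green line, 81.0%) and Dppa4 (purple line, 47.8%). Right, the Dox minus DMSO score percentile of 8891 peak pairs (grey bars), with the 2 pairs of Dppa2 (green lines) to the right of 0 and the 3 pairs of Dppa4 (purple lines) on both sides of it.

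Dppa4 (ENSMUSG00000058550.15) lies at chr16:48283733-48294237 on the plus strand of mm10. Its transcript with the longest coding sequence (ENSMUST00000096045.8) has 7 exons and 1479 nt, with 83 nt of 5′UTR, 888 nt of coding sequence and 505 nt of 3′UTR. Its 5 DMSO peaks lay in 3 zones: a pair of peaks in exons 2 and 3, a single peak in exon 5, and a pair around and after the stop codon in exon 7. Under Dox the first zone had 2 peaks, the last had 1, and exon 5 and the stop codon itself had none. Each peak carries a value, called the score, that appears to be the −log10 of a p-value computed by the authors. It is given with its percentile, the share of peaks of the same list with a lower score, because the scale may differ between lists.

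The exon 2 peak of Dppa4 had the same coordinates in both lists, chr16:48287919-48288018, and covered codons 22 to 48. Of its 100 nt, 77 lay on this transcript and 23 ran past the end of exon 2. Those 23 nt are exonic only in another annotated transcript, whose longer exon ends at chr16:48288176. Its score was 12.1 (percentile 62.9) under DMSO and 10.6 (percentile 15.7) under Dox. The site was thus called in full in both treatments, with a lower rank under Dox.

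The exon 3 peak began at the same base in both lists, chr16:48288169, and was shorter under Dox. It held 125 nt under DMSO, over codons 48 to 87, and 75 nt under Dox, over codons 48 to 70, with 8 nt of each at the end of that longer exon. Its score was 11.2 (percentile 32.8) in the DMSO list and 14.0 (percentile 87.3) among Dox peaks, the highest Dox score of the gene. The peaks of exons 2 and 3 thus differed in opposite directions in rank. On the transcript used they meet at the splice junction. In the longer exon they lie apart, as the first ends at chr16:48288018 and the second begins at chr16:48288169.

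Exon 5 held a peak in the DMSO list only, at chr16:48291113-48291187, of 75 nt over codons 154 to 178. At 12.8 (percentile 74.3) it had the highest DMSO score of the gene. The stop codon peak at chr16:48293701-48293850 was also found in the DMSO list only. It spanned 29 nt of coding sequence, the stop codon and 118 nt of 3′UTR, and its score of 10.8 (percentile 19.3) was the lowest DMSO score of the gene. Over all DMSO peaks 57.0% had a partner, meaning a Dox peak sharing at least 1 base. The share was 74.4% between the 70th and 80th percentile of score, where the exon 5 peak stood, and 21.7% between the 10th and 20th, where the stop codon peak stood. The peak without a partner at the stop codon thus ranked where most DMSO peaks had none, and that in exon 5 where most had one.

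The last peak of Dppa4 lay in the 3′UTR alone. Counted from the first base of the stop codon as 0, it ran from 196 to 320 under DMSO (125 nt, score 11.9, percentile 57.9) and from 246 to 345 under Dox (100 nt, score 10.8, percentile 22.4). It was the only Dox peak of either gene that reached past its DMSO partner, by 25 nt at its 3′ end.

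**Figure D2:**
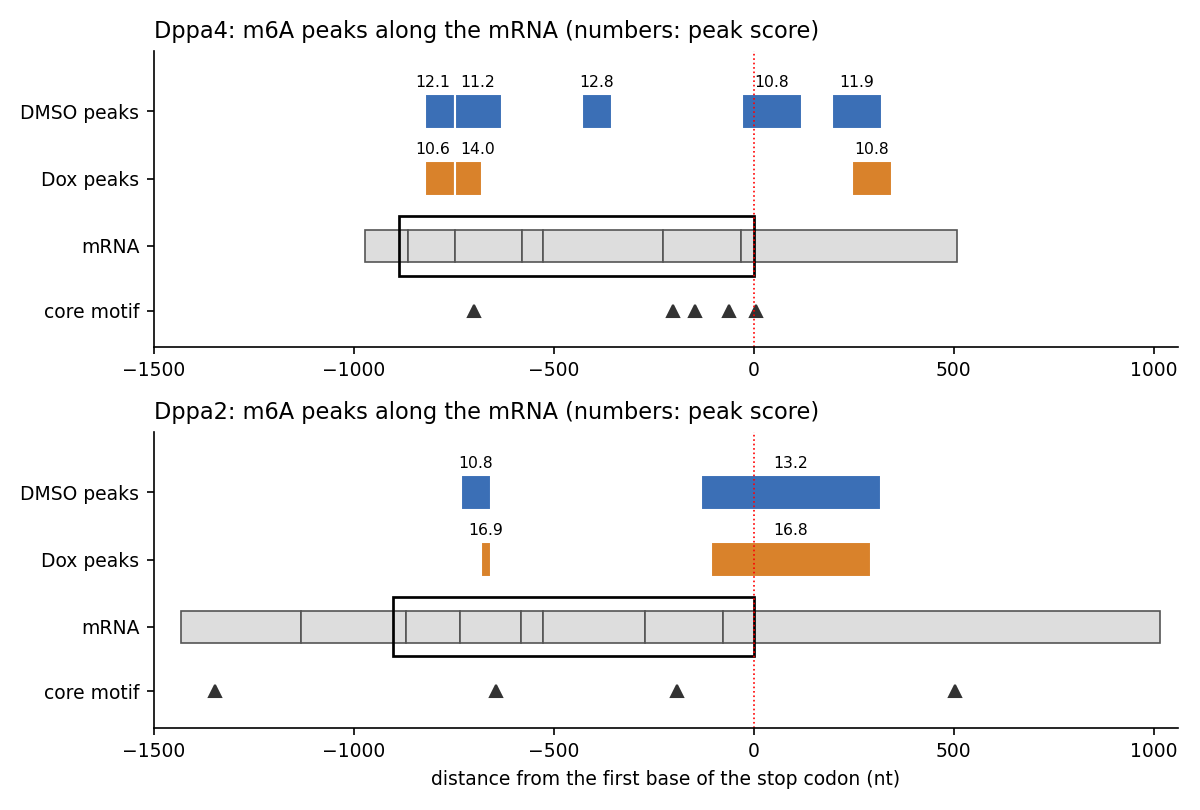
Peaks of Dppa4 (top) and Dppa2 (bottom) along the mRNA in nt from the first base of the stop codon (red dotted line), with DMSO peaks in blue, Dox peaks in orange and the score above each. Grey boxes are exons, the black outline is the coding sequence and triangles mark GGAC, of which those at −700 and 6 in Dppa4 fall within peaks and the 4 of Dppa2 fall in none.

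GGAC, the most frequent core of m6A sites, was looked for on the strand of the mRNA. It occurred 5 times in the Dppa4 mRNA, of which 2 lay in DMSO peaks and 1 in Dox peaks. With the A of the motif as its position, the occurrence at −700 in exon 3 was within the peak of both lists, and that at 6, just after the stop codon, was within the DMSO peak only. The others, at −201, −148 and −62, lay in exon 6, which had no peak in either list. The mm10 sequence of the site in both lists (chr16:48289073-48289096) is shown beside that of an exon 6 site with no peak (chr16:48292978-48293001), with GGAC in capitals.
Dppa4 exon 3, in a DMSO and a Dox peak: tgagacgccaGGACagactcgtag
Dppa4 exon 6, in no peak: gttccacgctGGACaagcctgggt
GGAC was therefore present in Dppa4 both where peaks were called and where none was. By peak, 2 of 5 DMSO peaks and 1 of 3 Dox peaks of Dppa4 held GGAC, against 54.0% of all DMSO peaks and 55.9% of all Dox peaks.

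Dppa2 (ENSMUSG00000072419.5) lies 9670 nt further along the same strand, at chr16:48303908-48319723. Its transcript with the longest coding sequence (ENSMUST00000232448.1) has 8 exons and 2447 nt, with 529 nt of 5′UTR, 903 nt of coding sequence and 1012 nt of 3′UTR. Dppa2 had 1 short peak in exon 4 and 1 broad peak over the stop codon, and both were called in both lists. Under Dox both were shorter, and every base of them lay within the DMSO peaks.

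The exon 4 peak of Dppa2 was at chr16:48313885-48313959 under DMSO, with 75 nt over codons 58 to 82, and only its last 25 nt, over codons 74 to 82, were called under Dox. Its score was 10.8 (percentile 19.1) under DMSO and 16.9 (percentile 95.2) under Dox. A peak near the bottom of its list under DMSO thus stood near the top under Dox, at about the same place. Peaks of 25 nt are among the shortest of the lists and hold little sequence. This one held no GGAC, like most Dox peaks of 25 nt, of which 15.3% held it.

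The broad peak of Dppa2 joined the end of exon 7 to exon 8, and its middle lay 93 nt after the first base of the stop codon in both lists. Under DMSO it ran from −132 to 317 and held 450 nt, with 132 nt of coding sequence, the stop codon and 315 nt of 3′UTR (score 13.2, percentile 78.2). Under Dox it was 25 nt shorter at each end, from −107 to 292, and held 400 nt (score 16.8, percentile 94.97, rank 655 of 13001). Every peak length in both genes was a multiple of 25 nt, and 25 nt was the smallest difference seen between paired edges that differed. Peaks with their middle within 200 nt of the stop codon made up 22.9% of DMSO and 25.1% of Dox peaks placed on a transcript. Among the members these were 2 of 7 DMSO peaks, 1 in each gene, and 1 of 5 Dox peaks, that of Dppa2.

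No peak of Dppa2 held GGAC, which is infrequent for peaks as long as the broad one. Among DMSO peaks of 450 nt, 92.8% (181 of 195, Wilson 95% interval 88.3 to 95.7) held it, and among Dox peaks of 400 nt, 93.6% (176 of 188, 89.2 to 96.3). GGAC occurred 4 times in the Dppa2 mRNA, and its A stood outside the peaks each time: at −1348 in the 5′UTR, at −644 in exon 4, at −193 in exon 7 and at 504 in the 3′UTR. The windows of the coding sequence are shown since they lie close to the peaks: that at −644 (chr16:48313961-48313984) follows the exon 4 peak, which ended at −658 in both lists, and that at −193 (chr16:48317355-48317378) precedes the stop codon peak.
Dppa2 after the exon 4 peak: ctcctattagGGACgtgtcccgga
Dppa2 before the stop codon peak: atttcttgctGGACagacctgggt
The former is followed by G and so is no match to DRACH, the wider motif of m6A sites (A, G or T, then A or G, then AC, then A, C or T), which takes in GGAC wherever the next base is not G.

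DRACH, searched on the same strand, had 19 matches in the broad peak of Dppa2 under DMSO and 18 under Dox. The 19 matches were built on AAAC (8), TGAC (4), TAAC (4), AGAC (2) and GAAC (1), so that most of them had an A, and not a G, right before the A of the site. The AAAC matches with their A at 67, 71, 76, 81, 85, 89 and 95 lay in the same A-rich run of the 3′UTR. The number of matches thus rests in part on that run.

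Part of the peak's sequence occurs in it more than once. A stretch of 31 nt stood at chr16:48318920-48318950 and again at chr16:48318990-48319020. Each copy held 1 of the matches, TGACA, and the first 30 bases are given with no capitals because they are the same in both copies.
Dppa2 3′UTR, repeated stretch: ctgacagctcctcatggcctcgtgctggat
Soft-masked repeats made up 90 nt of the peak in each list. Matches outside both copies included AGACA, which begins in the stop codon (A at 3, chr16:48318700-48318724), and AGACT (A at 148, chr16:48318845-48318869). They are shown with the match in capitals, as AGAC differs from GGAC by its first base alone.
Dppa2 at the stop codon: atgccgccgtAGACAagattttact
Dppa2 3′UTR: agcagagtggAGACTctgttgacaa
A match says that the letters are there, and MeRIP-seq peaks do not say which A was methylated.

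Over both genes, DRACH had 60 matches in the Dppa2 mRNA, 21 of them in DMSO peaks and 18 in Dox peaks, and all 18 were in a DMSO peak as well. The Dppa4 mRNA had 33 matches, 15 in DMSO peaks and 8 in Dox peaks, with 7 in both. Each of the 7 DMSO peaks held at least 1 match, as did 4 of the 5 Dox peaks, the exception being the 25 nt peak of Dppa2. Over the whole lists 84.9% of DMSO and 85.4% of Dox peaks held DRACH.

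The peaks of both lists formed 5 pairs, 2 in Dppa2 and 3 in Dppa4, so that 5 of 7 DMSO peaks and 5 of 5 Dox peaks had a partner. Over the whole lists these shares were 57.0% and 92.7%. In 4 of the 5 pairs the Dox peak was the shorter one, as in 68.9% of the 8891 pairs in which neither peak overlapped another, and in 1 the blocks were identical (17.5%). The Dox peak lay wholly inside a longer DMSO peak in 3 of 5 pairs, as in 66.7% of the 8891. Of the bases in DMSO peaks, 425 nt of Dppa2 (81.0%) and 250 nt of Dppa4 (43.5%) lay in Dox peaks too. Of the bases in Dox peaks these were 100% and 90.9%.

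The score was higher in the Dox list in 3 of 5 pairs, against 33.9% of the 8891 pairs. The percentile under Dox was 76.1 points higher for the exon 4 peak of Dppa2, 54.5 points higher for the exon 3 peak of Dppa4 and 16.8 points higher for the stop codon peak of Dppa2. Ranked among all pairs, from the most negative to the most positive difference, these stood at 99.8%, 97.99% and 81.4%. The other pairs of Dppa4 went the other way, with a difference of −47.1 points in exon 2 (11.2%) and −35.5 in the 3′UTR (19.1%). The median over all pairs was −6.94 points (quartiles −28.8 and 9.77). Dppa2 thus ranked higher under Dox at both of its sites, whereas Dppa4 ranked higher at 1 and lower at 2. The best score of either gene was higher in the Dox list, 16.9 against 13.2 for Dppa2 and 14.0 against 12.8 for Dppa4, as in 29.8% of genes with peaks in both lists. These are differences between 2 lists, and whether they exceed the spread between replicates could not be tested.

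**Figure D3:**
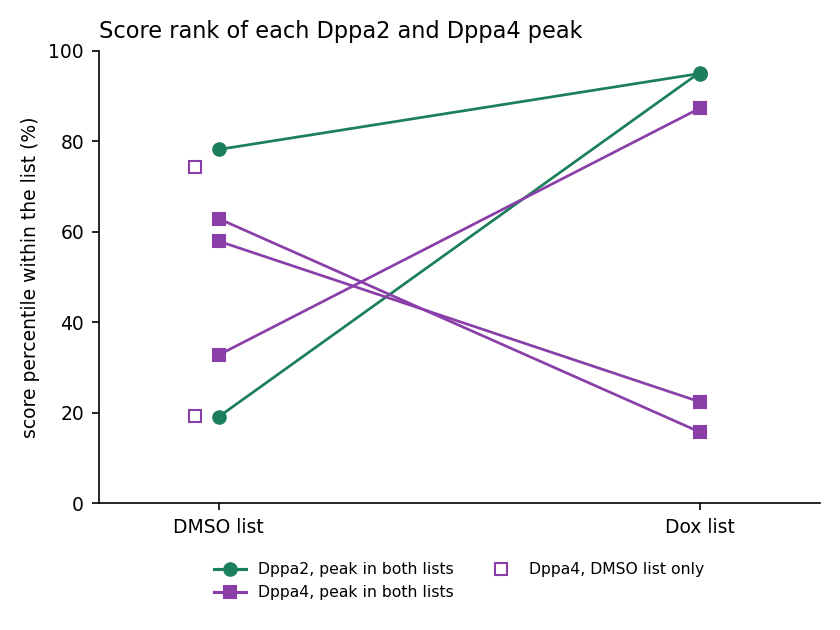
Score percentile within its own list (vertical axis, %) of each peak of Dppa2 (green circles) and Dppa4 (purple squares), with a line joining the peaks of a pair. Both lines of Dppa2 end near 95, those of Dppa4 end at 87.3, 22.4 and 15.7, and the open squares are the DMSO peaks of Dppa4 with no partner, at 74.3 and 19.3.

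A threshold on the score changed the counts of the genes unevenly. With a score of at least 11 asked of both lists, a setting chosen after the data were seen, Dppa2 had 1 DMSO and 2 Dox peaks and Dppa4 had 4 and 1. Of all peaks, 27.4% of the DMSO list and 30.4% of the Dox list scored under 11.

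Dppa2 and Dppa4 are paralogs, and their proteins were aligned to compare the peaks codon by codon. Of 301 and 296 codons, 268 were aligned and 97 residues were the same (36.2%), while 48.5% of the aligned coding bases were the same. Exon 7 of Dppa2 and exon 6 of Dppa4, both of 196 nt, were the most alike of the exon pairs with over 10 aligned codons, with 62.1% of 66 residues the same. A GGAC lies at aligned codons in this conserved exon, at codon 237 of Dppa2 and codon 247 of Dppa4 (both printed above), and was outside the peaks in both genes and both lists.

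Some of the peaks lay at corresponding places. Exon 4 of Dppa2, with its short peak, aligns with exon 3 of Dppa4, with the GGAC at −700, over 51 codons of which 27.5% are the same. Under DMSO, 54 of the aligned codons were in a peak of Dppa2, 85 in a peak of Dppa4 and 35 in a peak of both. Under Dox these were 29, 46 and 0. With all peaks kept, the overlap of the paralogs in the coding sequence was thus seen in the DMSO list alone. It lay in the exon 4 peak of Dppa2 and the stop codon peak of Dppa4. Each had a DMSO score of 10.8, the lowest of its gene. Both peaks drop out at a score of at least 11, at equal list sizes and without copies of 98%, and the overlap goes with them. Under Dox, the peak of exon 4 in Dppa2 held only the 3′ end of its DMSO partner and that of exon 3 in Dppa4 only the 5′ end, and the stop codon peak of Dppa4 was not called.

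Copies elsewhere in the genome limit some of these peaks. A search of each peak's sequence found a near-identical copy (98% identity or more along 90% or more of the peak) for 4 of the 12 peaks. These were the exon 4 peak of Dppa2 in both lists, 100% identical to the processed pseudogene Gm9788 on chromosome 19, and the Dppa4 peaks in exon 5 (98.7%, Gm14058 on chromosome 2) and at the stop codon (98.7%, Gm5501). The site that differed most in rank and both sites without a Dox partner thus had a near-identical copy. Without the 4 peaks, Dppa2 had 1 peak in each list and Dppa4 had 3 in each. At 95% identity or more, 6 of the 12 peaks had a copy. These include the 3′UTR peak of Dppa4, with a best match of 97.6% under DMSO and 97% under Dox. The best match of its exon 3 peak under DMSO was 94.9%. Of the 24 aligned stretches elsewhere with at least 90% identity, 0 lay under a peak of either list. How reads that fit several loci were counted is not given in the sources used here. For the Dppa4 peaks of exon 2 (both lists) and exon 3 (Dox), no match reached 90% of the peak's length. This does not show that they lack copies. Outside the transcript used lay 23 of 100 nt of the exon 2 peak and 8 of 75 nt of the exon 3 Dox peak. A copy of the spliced mRNA could thus fall short of the length asked. The exon 3 peak under DMSO, which holds all of the Dox peak, had its best match at Gm5501 on chromosome 18. The best match of the stop codon peak of Dppa2 was 93.4% under DMSO and 93.5% under Dox.

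The genes around the pair were looked at too. Of 12 other annotated genes within 500 kb of either gene, 1 had a DMSO peak and 0 had a Dox peak. The gene with a peak was Morc1, a gene of male germ cells, with 2 DMSO peaks and a best score of 12.6. Only 4 of the 12, Morc1 among them, are protein-coding. Of all protein-coding genes, 27.5% had a peak under DMSO and 22.1% under Dox. Counts from 4 genes do not set this locus apart.

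Dppa2 and Dppa4 share the name "developmental pluripotency associated" with unrelated genes that were found by their expression in pluripotent cells. Of 5 genes of that name, 3 had a peak in each list. Dppa5a, an RNA-binding protein of ESCs, had 1 peak in each, with a best score of 13.3 under DMSO and 11.2 under Dox. Dppa1 and Dppa3, the latter a maternal factor that protects DNA methylation in the zygote, had none.

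Other genes acting on Dux were listed by role. Of 4 further activators of Dux or the 2C-like state, 3 had peaks in both lists, with 27 DMSO and 17 Dox peaks in sum. Top2a, a topoisomerase, had 13 and 5, Trp53, which encodes p53, had 8 and 7, and Nelfa, a maternal factor that acts with TOP2A, had 6 and 5. All 3 had fewer peaks under Dox, as did 49.4% of genes with peaks in both lists, and Nelfa had more bases in peaks under Dox (1125 nt against 1025 nt). In sum the Dox peaks were 63.0% of the DMSO peaks in number, where the whole Dox list was 68.8% of the DMSO list. The fourth was Dppa3, with no peak.

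The SUMO pathway acts on DPPA2, which is SUMOylated by the ligase PIAS4 and so held back. The 4 genes of the pathway given here all had peaks in both lists, with 15 in sum under DMSO and 10 under Dox. The ligase gene Pias4 had 6 and 4, Sumo2, the modifier, 1 and 1, and Sae1 and Uba2, the activating enzyme, 4 and 3 and 4 and 2. Fewer peaks under Dox were found in 3 of these and as many in 1, against 49.4% and 37.1% of genes with peaks in both lists. In sum the Dox peaks were 66.7% of the DMSO peaks, near the 68.8% of the whole lists.

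Of 14 repressors of Dux or the 2C-like state, 14 carried peaks under DMSO and 11 under Dox, with 71 and 50 peaks in sum. The sum under Dox was 70.4% of that under DMSO, near the 68.8% of the whole lists. Fewer Dox than DMSO peaks, or none, were found in 12 of them, against 60.5% of all genes with a DMSO peak, for instance in Setdb1, a histone methyltransferase (8 and 4), and in Trim28, its corepressor (8 and 5). Chaf1b, of the chromatin assembly factor, had 2 in each, and Ctcf, which shapes chromatin loops, had 6 and 7. Pcgf6 and E2f6, of a polycomb complex that silences germline genes, and Smchd1, a chromatin protein, had a peak under DMSO and none under Dox. Over activators, the SUMO pathway and repressors, 21 of 22 genes carried a peak under DMSO and 18 under Dox, above the 27.5% and 22.1% of all protein-coding genes, a group that also holds genes not expressed in ESCs.

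The targets of DPPA2 and DPPA4 had 5 DMSO and 11 Dox peaks over 5 genes, with more Dox peaks in 2, fewer in 1 and none in either list in 2. More Dox than DMSO peaks were not confined to them, as the 7 ESC markers had 25 and 29 in sum, with more in 4 and fewer in 1, and 13.5% of genes with peaks in both lists had more. This likeness holds for the number of peaks only. The bases in peaks of the targets came to 625 nt under DMSO and 3897 nt under Dox, and those of the ESC markers to 12875 and 12550 nt. Duxf3, the annotated copy of Dux, had 0 DMSO peaks and 4 Dox peaks, with a best score of 20.6, and whether these hold RNA of the transgene was not tested. Zscan4c had 4 and 3 peaks and Zscan4d 1 and 4. The bases in peaks were more under Dox in Zscan4c (1625 nt against 600 nt) and in Zscan4d (1672 nt against 25 nt). Best scores were also higher, at 38.1 against 11.6 and 37.4 against 10.7. These genes belong to a family of near-identical copies, so that their counts, bases and scores are uncertain one by one. Nkx2-5, a transcription factor gene of the heart, and Syce1, a gene of meiosis, had no peak in either list. The activators Dppa2 and Dppa4 thus carried peaks in both lists, while Dux itself had peaks in the Dox list only. By quantitative PCR of RNA pulled down with an m6A antibody, the study reported Dux mRNA as methylated with or without Dox. A missing DMSO peak therefore need not mean that the RNA carried no m6A.

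**Figure D4:**
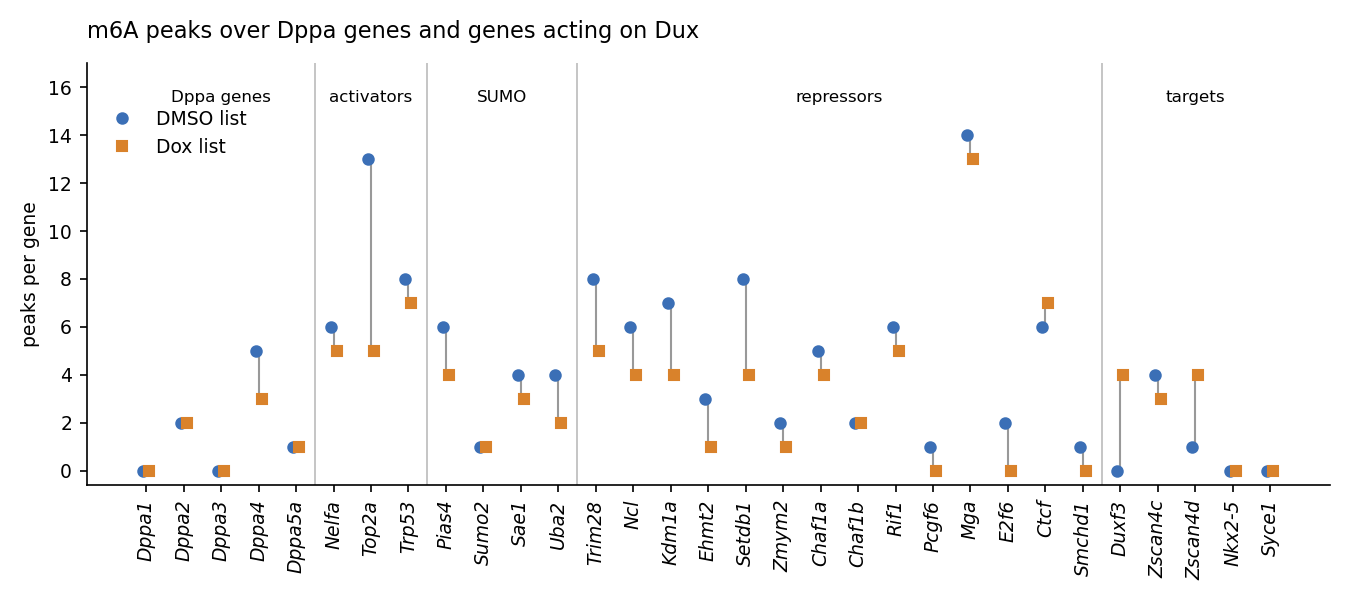
Number of peaks per gene (vertical axis) in the DMSO list (blue circles) and the Dox list (orange squares), joined by a grey line, for the Dppa genes, activators, SUMO pathway, repressors and targets. Most activators and repressors have the square below the circle, as Dppa4 has, while Dppa2 has 2 in each list and Duxf3 has 0 and 4.

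The protein-coding genes whose peaks were most like those of each member were found by the bases in peaks and the best score of both lists on a log2 scale, summing the absolute differences. For Dppa2 these were Ddx18, an RNA helicase of ribosome assembly (distance 0.19, with 2 peaks in each list, 525 and 450 nt, and best scores of 13.9 and 17.3), Gsta4 (0.21) and Atad2 (0.25). For Dppa4 they were Dnajc13 (0.25, with 4 and 3 peaks, 525 and 275 nt, and best scores of 14.0 and 14.1), Wasf1 (0.27) and Pdcd6ip (0.28). The likeness rests on 4 values per gene, from 2 lists.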

How the data were processed

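MeRIP-seq of E14 ESCs gave 8 libraries (DMSO or Dox for 24 h, IP and input, 2 replicates each). Per the study's methods and processing notes, the authors filtered reads with fastp 0.19.4, aligned them to mm10 with HISAT2 2.2.1 and called peaks with exomePeak2; ChIPseeker is also named. How replicates were combined, and the peak caller's version and settings, are not given in the sources used here. Each deposited peak has a score, taken here for a −log10 p-value of the authors: the lowest was 10.0, the highest finite value 296, and 4 were infinite (3 DMSO, 1 Dox). Depth is unknown.

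Peaks were set against GENCODE M21 (GRCm38), and sequences were read from the RefSeq copy of that genome. Positions used the transcript with the longest coding sequence. GGAC and DRACH were searched on the mRNA strand of the exon blocks. Proteins were translated from the transcripts and aligned with Biopython 1.88, and copies were searched with blastn 2.17.0. Python 3.11.15, numpy 2.4.6, scipy 1.17.1 and matplotlib 3.10.9 were used. The assignment of peaks to genes, overlaps and stop codons was tested on simulated data. Wilson intervals cover counting error only. The members, gene lists and alternatives were chosen with earlier results of these data known. Named genes were the members, the listed genes, annotated genes within 500 kb and the 3 most similar genes per member. Alternatives covered score thresholds, overlap, strand, introns, copies, transcript, window and motif. No table of reads per gene was analysed here. Of the SUMO pathway list, 1 gene is not reported here and is in none of the counts, and neither is a stretch of sequence reported.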

Additional observations from a re-analysis of the deposited data

How the results depend on the processing

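No paired analysis was possible because the replicates are combined in 1 peak list per treatment, and for the same reason no replicate could be left out. Of 72 alternative values for 16 counts, 48 stayed within 1.5 times the reported count, 31 of them equal to it, and 24 moved further. Dppa2 kept 1 of its 2 DMSO peaks with a score of at least the DMSO median (11.6), with equal list sizes (13001 peaks each, lowest DMSO score 11.1), with a score of at least 11, and without peaks that have a copy of 98% or 95% identity; the last 2 settings also left 1 of its 2 Dox peaks. Dppa4 kept 3 of 5 DMSO peaks at the median score and without copies of 98%, and 2 without copies of 95%; of its 3 Dox peaks 1 was left at the median and at a score of at least 11. Its DMSO bases fell from 575 to 300 at the median and to 350 without copies of 98%, and its Dox bases from 275 to 75 at the median and at 11. The Dox bases as a share of the DMSO bases, 47.8% in Dppa4, came to 17.6% at a score of at least 11, 25% at the median, 64.7% at equal list sizes, 78.6% without copies of 98% and 79.1% with introns; in Dppa2 they came to 88.9% to 94.4% over the same settings, from 81.0%. Counting whole spans with introns gave 1674 and 1574 bases in Dppa2 and 1437 and 1137 in Dppa4 (DMSO and Dox), because introns within peaks are added. A window of 400 nt at the stop codon held 4 DMSO and 2 Dox peaks in place of 2 and 1. DRACH in place of GGAC was held by 7 DMSO and 4 Dox peaks in place of 2 and 1. At equal list sizes Dppa4 had 4 DMSO and 3 Dox peaks. The settings of a score of at least 11 and of copies of 95% were chosen after seeing the data, as was leaving out copies when counting bases. With no depth and no replicate values, a site in 1 list only may lie just under the calling threshold in the other.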
